A study of Rattus norvegicus with 5 samples.

Results

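This account follows 9 rat genes of the BCL2 family and the caspases, Bmf, Pmaip1, Bbc3, Bcl2l11, Bax, Bcl2, Bcl2l1, Mcl1 and Casp8, in BRL-3A cells, an established line grown from the liver of a Buffalo rat. They were taken by name from the probe annotation of a one-colour Agilent array, which held all 9 of them among 15167 named genes. BRL-3A cells were given a lentivirus named for Tmub1 knockdown, the negative control virus of that knockdown, a lentivirus named for Tmub1 overexpression, the negative control virus of that overexpression, or no virus (normal cells). Tmub1 encodes a membrane protein that carries a ubiquitin-like fold. Cells with virus were harvested 48 h after transduction, and 1 array was made per group. The sources used here give neither the hairpin, the promoter of the constructs nor whether cells were selected or cloned. With 1 array per group there is no replicate spread and no test, so each difference compares an array with an array.

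Cells decide on mitochondrial apoptosis through contacts between BCL2 relatives. BH3-only proteins (Bmf, Pmaip1, Bbc3, Bcl2l11) carry stress signals and bind the anti-apoptotic members Bcl2, Bcl2l1 and Mcl1, which otherwise restrain Bax, a protein that opens the outer mitochondrial membrane. Caspase-8, the product of Casp8, starts the separate route from death receptors and can join the mitochondrial route by cleaving the BH3-only protein Bid. In mouse liver, hepatocyte survival depends strongly on Bcl2l1 and Mcl1.

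Between the knockdown virus and its negative control, members differed in both directions, also within the BH3-only group. The BH3-only gene Pmaip1 (Noxa) was 6.63-fold higher and Casp8 3.66-fold higher on the knockdown array, while the BH3-only genes Bmf and Bbc3 (Puma) were 6.01-fold and 3.42-fold lower. Mcl1, which Noxa binds, was 2.46-fold higher, just under the 2.5-fold threshold that the series' design text names. Between the overexpression virus and its negative control, 0 of the 6 members that could be called reached 2.5-fold, against 3.14% of all genes. Pmaip1, Bcl2l11 and Bcl2 were too dim on both of these arrays to be called.

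The sequences just upstream of the genes with the largest difference in each direction are shown because they are the stretches a reader would search for regulatory motifs. They are the 250 bases before the annotated start, 5′ to 3′ in the direction of transcription, from RefSeq on the GRCr8 build, at chr18:62255720-62255969 on the plus strand for Pmaip1 and chr3:125974065-125974314 on the minus strand for Bmf. Capitals mark matches, on either strand, to 6 motifs that were searched.
Pmaip1: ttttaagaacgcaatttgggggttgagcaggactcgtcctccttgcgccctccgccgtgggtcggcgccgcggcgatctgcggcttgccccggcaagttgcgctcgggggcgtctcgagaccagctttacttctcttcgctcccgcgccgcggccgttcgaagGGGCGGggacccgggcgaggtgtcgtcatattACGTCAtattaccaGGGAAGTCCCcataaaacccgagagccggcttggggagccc
Bmf: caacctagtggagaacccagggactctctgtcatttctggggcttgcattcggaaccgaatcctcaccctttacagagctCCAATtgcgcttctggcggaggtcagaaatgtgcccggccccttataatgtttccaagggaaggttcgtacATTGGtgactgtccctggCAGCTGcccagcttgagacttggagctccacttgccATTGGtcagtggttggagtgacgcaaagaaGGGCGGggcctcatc
The Pmaip1 window holds the core of a cAMP response element, TGACGT, as ACGTCA at bases -55 to -50 from the start. It also holds a GC box, GGGCGG, at -87 to -82 and a match to an NF-kB site, searched as GGGA and CC with any 4 bases between them, at -41 to -32. The Bmf window holds a GC box at -15 to -10, 3 copies of the CCAAT box (CCAAT, or ATTGG on the other strand) and an E-box, CAGCTG, at -81 to -76. Of 33469 rat promoter windows of this length, TGACGT occurred in 6.95%, GGGCGG in 30.5%, the NF-kB site in 16.4%, CCAAT in 34.0% and CAGCTG in 12%. The FoxO core GTAAACA, found in 3.21% of all windows, was in neither of these. No marked matches overlap, and each match describes letters only. Promoter windows were matched for 6 of the 9 members.

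Levels below are log2 of the processed signal minus the 75th percentile of the same array, so 0 is the brightness at that percentile. That percentile lay at 1417 intensity units on the knockdown array, 687 on its negative control, 665 on the overexpression array, 555 on its negative control and 1341 in normal cells. The share of probes well above background ran between 66.9% and 86.5%. The 4 arrays with virus were scanned at another time than the normal array, so scan and group cannot be told apart in any comparison with normal cells. Tmub1 itself was at -1.42 on the knockdown array, 0.45 on its negative control, 0.44 on the overexpression array, 0.37 on its negative control and 0.08 in normal cells. It was thus 3.65-fold lower with the knockdown virus, and its level on the library labelled Tmub1 overexpression was 1.05-fold that of its negative control, so directions drawn from that label rest on an array where Tmub1's probe showed no 2.5-fold difference. Whether this probe lies in the part of Tmub1 that the construct carries is not known here, so its reading may not count the construct's transcript. Of 8 hepatocyte markers, 5 or 6 were well above background, with Cps1 on no array and Alb on the knockdown negative control and overexpression arrays only, whereas all 6 fibroblast and stellate markers were on every array. The summed level of the hepatocyte markers, relative to the 75th percentile, was 1.14 on the knockdown array and 3.20 on its negative control, 3.22 on the overexpression array and 3.06 on its negative control, and 2.75 in normal cells. That of the fibroblast and stellate markers was 254 and 381, 322 and 520, and 336 in the same order. Both sums were lowest on the knockdown array, but the single markers did not all go that way. Col1a1 and Col3a1 made up most of the fibroblast and stellate sum. Vim was highest on the knockdown array, at 4.56 against 3.14 on its negative control. Des was at 0.77 there and 1.03 on that control, and lower on the other arrays. Col1a1, Col1a2, Col3a1 and Pdgfrb were lower on the knockdown array than on its negative control. The part of these markers in the members' differences was not tested.

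**Figure D1:**
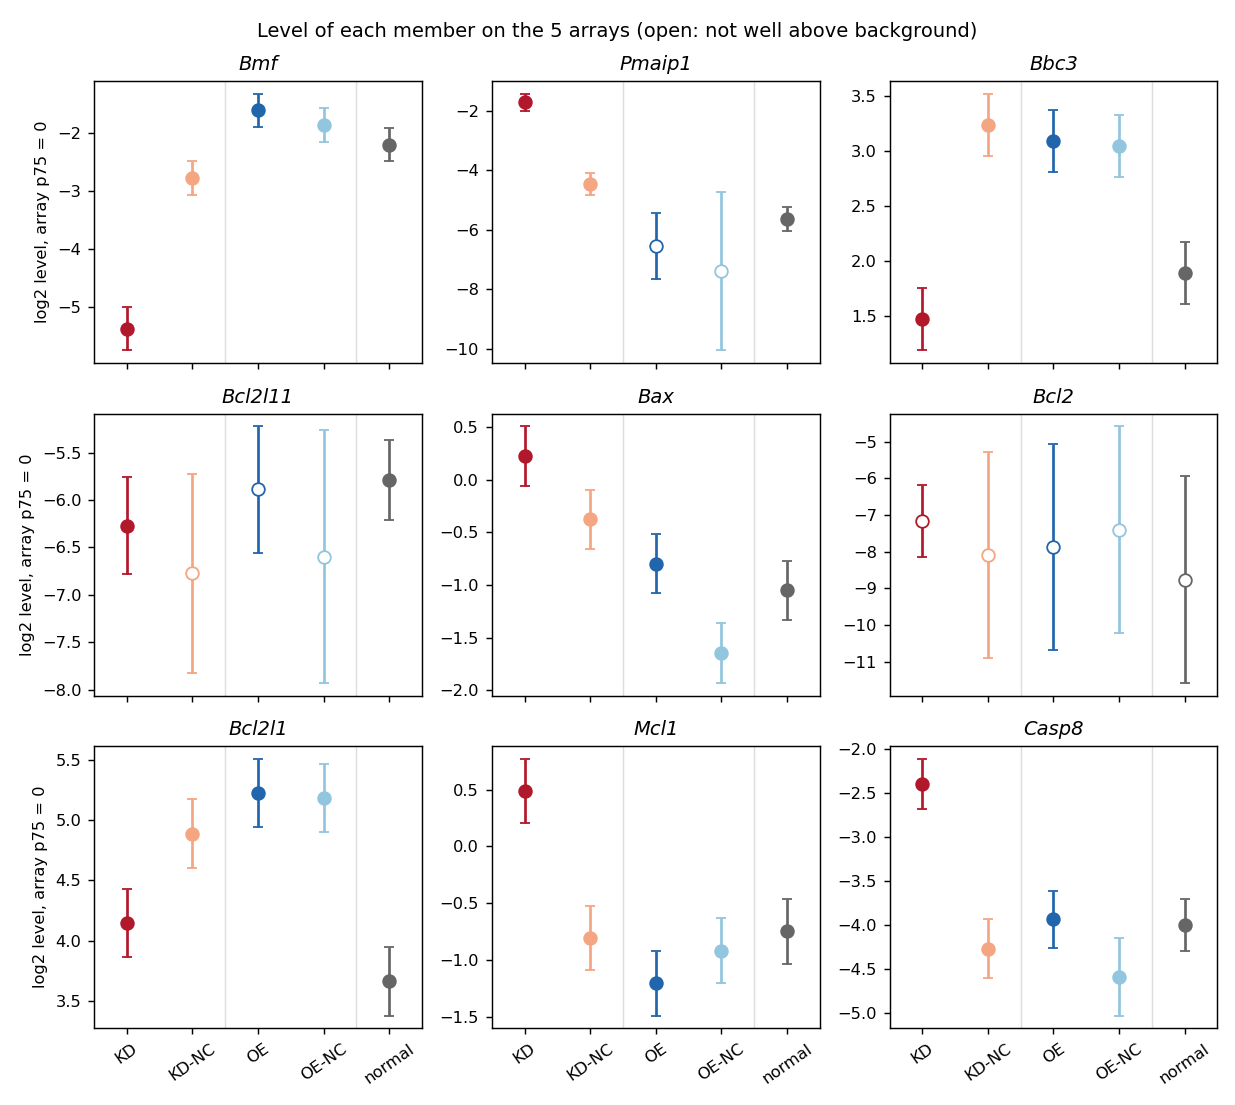
Levels of the 9 genes on the 5 arrays, as log2 signal minus the array's 75th percentile, with bars for the 95% scanner error (for Bcl2l1, the probe with the highest mean) and open points for spots not well above background. Pmaip1, Bax, Mcl1 and Casp8 stand highest and Bmf and Bbc3 lowest on the knockdown array, and Bcl2 is open on all 5.

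Pmaip1 encodes Noxa, a BH3-only protein that binds Mcl1 and is induced by p53 and by stress signals. Its probe read 429 intensity units on the knockdown array and 31.3 on its negative control, 7.15 on the overexpression array and 3.33 on its negative control, and 26.7 in normal cells. The scaled levels in that order were -1.72, -4.45, -6.54, -7.38 and -5.65. The knockdown array stood far above the others, and the 2 arrays of the overexpression pair were not well above background. The log2 difference of the knockdown array from its negative control was 2.73 ± 0.47, where the error after ± is here and below the 95% interval from the scanner software's spot errors, which covers the reading of a spot and not a repeat of the experiment. Of 12656 genes that could be called in this comparison, 0.830% were as high or higher. The control reading was dim. With normexp correction, which adds an offset of 50 units to each signal, the difference was 1.35, just over the 1.32 of the 2.5-fold threshold. Against normal cells Pmaip1 was 15.2-fold higher on the knockdown array. Against the overexpression negative control it was at least 16.6-fold higher, a bound because the dim reading was replaced by the lowest signal well above background on that array.

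Bmf encodes a BH3-only protein that binds the motor complexes of the cytoskeleton. Its probe read 34.3 units on the knockdown array and 100.2 on its negative control, 218 on the overexpression array and 153 on its negative control, and 291 in normal cells. The scaled levels were -5.37, -2.78, -1.61, -1.86 and -2.20. All readings were well above background, and the knockdown array was the lowest on both scales although its 75th percentile was the highest of the 5. The log2 difference from its negative control was -2.59 ± 0.48, and 0.727% of all genes that could be called were as low or lower. Bmf was also lower on the knockdown array than on both remaining controls, by 11.4-fold against the overexpression negative control and by 8.96-fold against normal cells. The overexpression pair differed by 0.25 ± 0.41 for Bmf, within the scanner error.

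Bbc3 encodes Puma, a p53 target that binds every anti-apoptotic relative. Its levels were 1.47 on the knockdown array, 3.24 on its negative control, 3.09 on the overexpression array, 3.05 on its negative control and 1.89 in normal cells. The knockdown and the normal array were low, and the 3 other arrays with virus lay together, with gaps between neighbours within the scanner error. So the call depended on the array it was set against. Bbc3 was lower by a log2 difference of -1.77 ± 0.40 against the knockdown negative control and -1.59 ± 0.40 against the overexpression negative control, but by -0.43 ± 0.40 against normal cells, which is under 2.5-fold. Before scaling, the probe read 3915 units on the knockdown array and 6496 on its negative control.

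Bcl2l11 encodes Bim, a BH3-only protein that binds all anti-apoptotic relatives. Its probe was close to the limit of detection, with 18.3 units on the knockdown array and 6.28 on its negative control, 11.2 on the overexpression array and 5.74 on its negative control, and 24.3 in normal cells. It was well above background on the knockdown and normal arrays only, and no fold is given for the knockdown pair because the bound leaves none. Between the knockdown array and normal cells, where both readings were well above background, the difference was -0.48 ± 0.66. All gaps between neighbouring arrays lay within the scanner error.

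Bax, the effector that opens the outer membrane, was read by 10 spots on each array. Its levels were 0.22 on the knockdown array, -0.38 on its negative control, -0.80 on the overexpression array, -1.64 on its negative control and -1.05 in normal cells. The SD between the 10 spots was between 0.08 and 0.12 on the log2 scale, well below these gaps, but it measures spots of an array and not cultures. Bax was highest on the knockdown array and lowest on the overexpression negative control. The knockdown virus exceeded its negative control by 0.60 ± 0.40 and the overexpression virus exceeded its own by 0.85 ± 0.40. The negative controls themselves differed by more, 1.27 ± 0.40 for knockdown control minus overexpression control, a 2.41-fold difference. Against the overexpression negative control, the knockdown array was 3.65-fold higher for Bax.

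Among the anti-apoptotic members, Mcl1 encodes a short-lived protein that Noxa engages. Its levels were 0.49 on the knockdown array, -0.81 on its negative control, -1.21 on the overexpression array, -0.92 on its negative control and -0.75 in normal cells. The knockdown array was high and the 4 others lay close together, with every gap between neighbours within the scanner error. The knockdown array exceeded the 3 control arrays by similar log2 differences, 1.30 ± 0.40 against its negative control, 1.41 ± 0.40 against the overexpression negative control and 1.24 ± 0.40 against normal cells. The threshold of 2.5-fold lies at 1.32, inside each of these intervals, so whether Mcl1 counts as called changed with the control array and with the scaling. It was called against the overexpression negative control, at 2.65-fold, and not against the other controls. Against its own negative control it was called with quantile normalization (1.39), with the percentile taken over probes above background on all arrays (1.61), with normexp background correction (1.33) and in the authors' deposited table (1.44).

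Bcl2, the founding anti-apoptotic member, read between 2.53 and 9.84 units and was not well above background on any of the 5 arrays, so its values have no order. Bcl2l1 encodes Bcl-xL and was read by 4 probes that disagreed. The probe with the highest mean, A_64_P054735, had levels of 4.15 on the knockdown array, 4.89 on its negative control, 5.22 on the overexpression array, 5.18 on its negative control and 3.66 in normal cells. Normal cells were lowest, followed by the knockdown array, and the 3 other arrays with virus lay together. The knockdown array differed from its negative control by -0.74 ± 0.40, with the 3 other probes at -0.65, -0.60 and -0.22, the last within its scanner error. Before scaling, A_64_P054735 read more on the knockdown array, 25153 units, than on its negative control, 20353. The sign changed on scaling because the knockdown array's 75th percentile was 2.06 times as high. With quantile normalization the difference was -0.11.

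The probes of Bcl2l1 split when arrays with virus were set against normal cells. A_64_P054735 and A_64_P008047, which the array annotates to the same transcript, were higher on the overexpression array by 1.56 and 1.52 and on its negative control by 1.52 and 1.53. They were higher on the knockdown array by 0.49 and 0.49 and on its negative control by 1.23 and 1.13. The other probes, each annotated to another transcript record of the gene, went the opposite way. A_44_P548065 was at -1.15 and A_64_P054730 at -2.19 on the overexpression array relative to normal cells, and at -1.18 and -2.01 on its negative control. On the knockdown array they were at -0.73 and -1.78, and on its negative control at -0.51 and -1.18. A single direction for Bcl2l1 between transduced and normal cells therefore cannot be given at gene level. All 4 probes were well above background on every array.

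**Figure D2:**
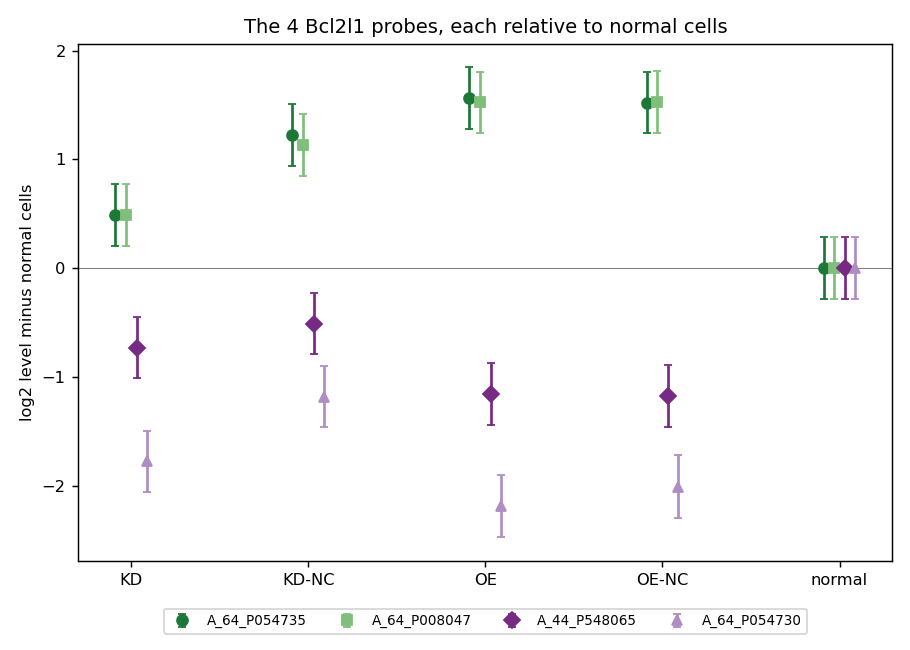
The 4 probes of Bcl2l1, each as its log2 level minus its own level in normal cells, on the knockdown (KD), knockdown negative control (KD-NC), overexpression (OE), overexpression negative control (OE-NC) and normal arrays, with bars for the 95% scanner error of each reading. The 2 probes in green lie above normal cells and the 2 in purple below on all 4 arrays with virus.

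Casp8 encodes the initiator caspase of death receptors. Its probe read 270 units on the knockdown array and 35.8 on its negative control, 43.6 on the overexpression array and 23.1 on its negative control, and 84.1 in normal cells. The scaled levels were -2.39, -4.26, -3.93, -4.58 and -4.00. The knockdown array stood alone, and the 4 others followed each other by gaps within the scanner error. The log2 difference from its negative control was 1.87 ± 0.44, and 3.74% of all genes that could be called were as high or higher. Casp8 was 4.57-fold higher on the knockdown array than on the overexpression negative control and 3.04-fold higher than in normal cells. Its control readings were dim, and with normexp correction, which adds an offset of 50 units to each signal, the difference from the negative control was 0.78 and no longer reached 2.5-fold.

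Counted together, 4 of the 8 members that could be called (brighter array well above background) differed by at least 2.5-fold between the knockdown virus and its negative control, against 18.7% of all genes. The 2 that were higher stand against 8.53% of all genes and the 2 that were lower against 10.1%. The median measured log2 difference was 0.55 over these 8 and -0.17 over all genes. The 0.55 lies between Bcl2l11, at 0.50 ± 1.17, and Bax, at 0.60. The control reading of Bcl2l11 was not well above background, so this median rests in part on a dim reading. The members were chosen with earlier results of these data known, so these contrasts with all genes are a description only. Against the overexpression negative control 6 of 8 were called, with a background of 30.1%, and against normal cells 3 of 8, with a background of 30.7%. Pmaip1, Casp8 and Bmf kept their direction and their call in each of these; the 3 comparisons share the knockdown array and are not independent.

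**Figure D3:**
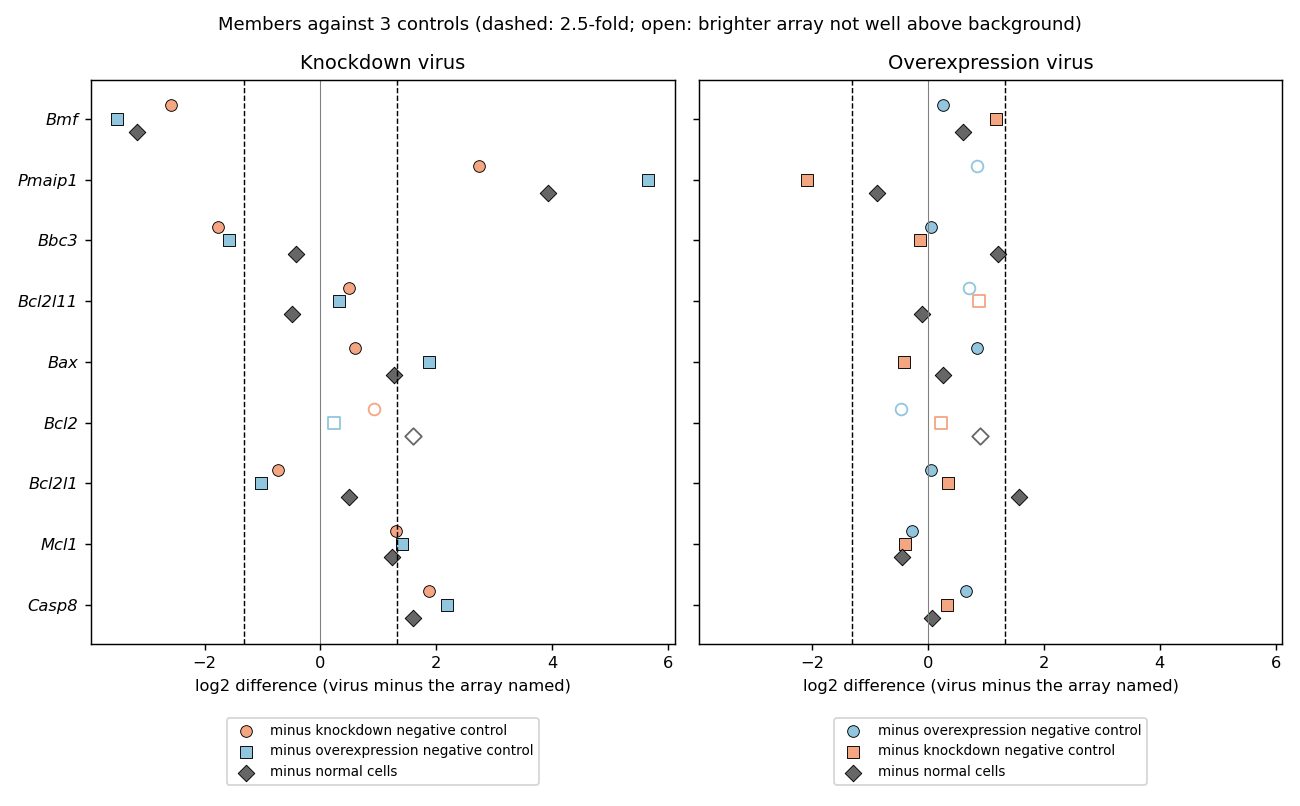
Measured log2 differences, without bounds, of the 9 genes on the knockdown array (left) and the overexpression array (right) from each of 3 control arrays, with dashed lines at 2.5-fold and open points where the brighter array was not well above background. On the left Pmaip1 and Casp8 lie right of the dashed line and Bmf left of it for all 3 controls. On the right, Pmaip1 against the knockdown negative control and Bcl2l1 against normal cells lie outside the lines. Bcl2l1 is shown by its probe with the highest mean only, and its probes disagreed in direction against normal cells.

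For the overexpression virus against its negative control, 0 of 6 members that could be called reached 2.5-fold, against 3.14% of all genes. Bax, at 0.85, and Casp8, at 0.65 ± 0.55, exceeded the scanner error but not the threshold. Mcl1 was at -0.29 ± 0.40, and Bbc3 and Bcl2l1 were each at 0.04 ± 0.40. The median over the 6 was 0.15, against 0.01 over all genes. Pmaip1, Bcl2l11 and Bcl2 were not well above background on either array, so no fold is given for them. Against the knockdown negative control, with a background of 4.23%, Pmaip1 alone was called, at least 3.21-fold lower. Against normal cells, with a background of 17.7%, Bcl2l1 alone was called, 2.95-fold higher by its brightest probe. Its probe A_64_P054730 was 4.55-fold lower in the same comparison, so this call gives no direction for the gene.

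The negative controls were also set against each other and against normal cells, to show how far members moved without a Tmub1 construct. Between the knockdown and the overexpression negative control 1 of 7 members was called, with a background of 8.97%: Pmaip1 was at least 2.50-fold higher, on the threshold. Against normal cells the knockdown negative control had 1 of 8 called, with a background of 16.8%: Bbc3, 2.54-fold higher. The overexpression negative control had 1 of 8 called, with a background of 19%: Bcl2l1, 2.87-fold higher by the probe with the highest mean. Here too A_64_P054730 went the other way, 4.02-fold lower, so the gene has no single direction. Leukocyte markers differed between the arrays with virus and normal cells. The summed level of the 4 on the array, of 5 listed, relative to the 75th percentile was 5.82 on the knockdown array, 7.02 on its negative control, 5.46 on the overexpression array and 7.75 on its negative control, against 0.0286 in normal cells. Of these 4, between 3 and 4 were well above background on the arrays with virus and 1 in normal cells, where Ptprc, Itgam and Lyz2 were not. Their part in the differences of the members from normal cells was not tested.

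Other genes of the same pathways came from a list of 71 symbols grouped by role, of which 67 were on the array and 58 were not members. Of the 54 of these that could be called, 2 were higher and 7 lower with the knockdown virus than with its negative control, 16.7% against 18.7% of all genes, which is near the background. The balance of directions depended on the scaling: over the whole list, members included, 4 were higher and 9 lower, but 9 and 6 with the percentile taken over probes above background on all arrays, 5 and 6 with quantile normalization, and 5 and 5 in the authors' deposited table. The median over the 54 that are not members was -0.28, against -0.17 over all genes. In the BH3-only group, members included, 2 of 8 were higher and 2 lower; besides the members, Bid, the BH3-only protein that caspase-8 cleaves, was 2.52-fold higher, on the threshold, and was not called with quantile normalization, with normexp or in the authors' deposited table. Among pore-forming effectors 0 of 3 were higher and 2 lower: Bok was 4.43-fold lower and Bak1 2.61-fold lower. Among 5 anti-apoptotic genes 1 was lower, Bcl2l2 (Bcl-w), by 3.64-fold. Bak1, like Diablo, Mdm2 and the genes gained under other scalings below, was named after its values were seen.

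Among 9 caspases 1 was higher, Casp8, and 1 lower, the executioner Casp6, by 3.16-fold. Of 8 genes of mitochondrial release and the apoptosome, Htra2, a protease of the intermembrane space, was 2.87-fold higher and Diablo, which antagonises inhibitor of apoptosis proteins, was 2.87-fold lower. Of the remaining groups, Bnip3, a mitochondrial relative with roles in mitophagy, was 3.28-fold lower and Mdm2, the ubiquitin ligase of p53, 2.60-fold lower. None was called among 9 death receptor genes, 5 inhibitor of apoptosis genes and 4 execution genes. The caspases called were 22.2% and the mitochondrial release and apoptosome genes 25%, near the 18.7% of all genes. All these groups are small, so their counts are a description only. Some calls depended on the scaling. Bak1 and Mdm2 were not called with quantile normalization, with the percentile over probes above background, with normexp or in the authors' deposited table. They were also lost with outlier spots kept, and Mdm2 with the mean of all probes. Diablo was lost with quantile normalization, with that percentile and in the authors' table, and Bnip3 in the authors' table. Other genes were gained. Casp12 was called higher with quantile normalization, with that percentile and in the authors' table. Among death receptor genes, Faslg and Fadd were called higher with that percentile and Cflar with the mean of all probes. Foxo3 was called higher with that percentile, and Bcl2l10 lower with normexp.

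The array used as control mattered here as for the members. Bak1 was at -1.38 against the knockdown negative control, 0.20 against the overexpression negative control and -0.63 against normal cells. Bid, with the controls in that order, was higher on the knockdown array by 2.52-fold, 6.10-fold and 3.19-fold, and Casp6 was lower by 3.16-fold, 6.94-fold and 4.99-fold. The other calls did not hold against all 3 controls. Bok, Bcl2l2, Bnip3, Diablo and Mdm2 were called against both negative controls but were only 1.97-fold, 2.21-fold, 1.90-fold, 1.31-fold and 1.11-fold lower than in normal cells. Htra2 was 1.54-fold higher than on the overexpression negative control and 2.16-fold higher than in normal cells, under the threshold for both. For the overexpression virus against its negative control, 0 of 56 genes of the whole list reached 2.5-fold, near the 3.14% of all genes, and their median was -0.05.

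**Figure D4:**
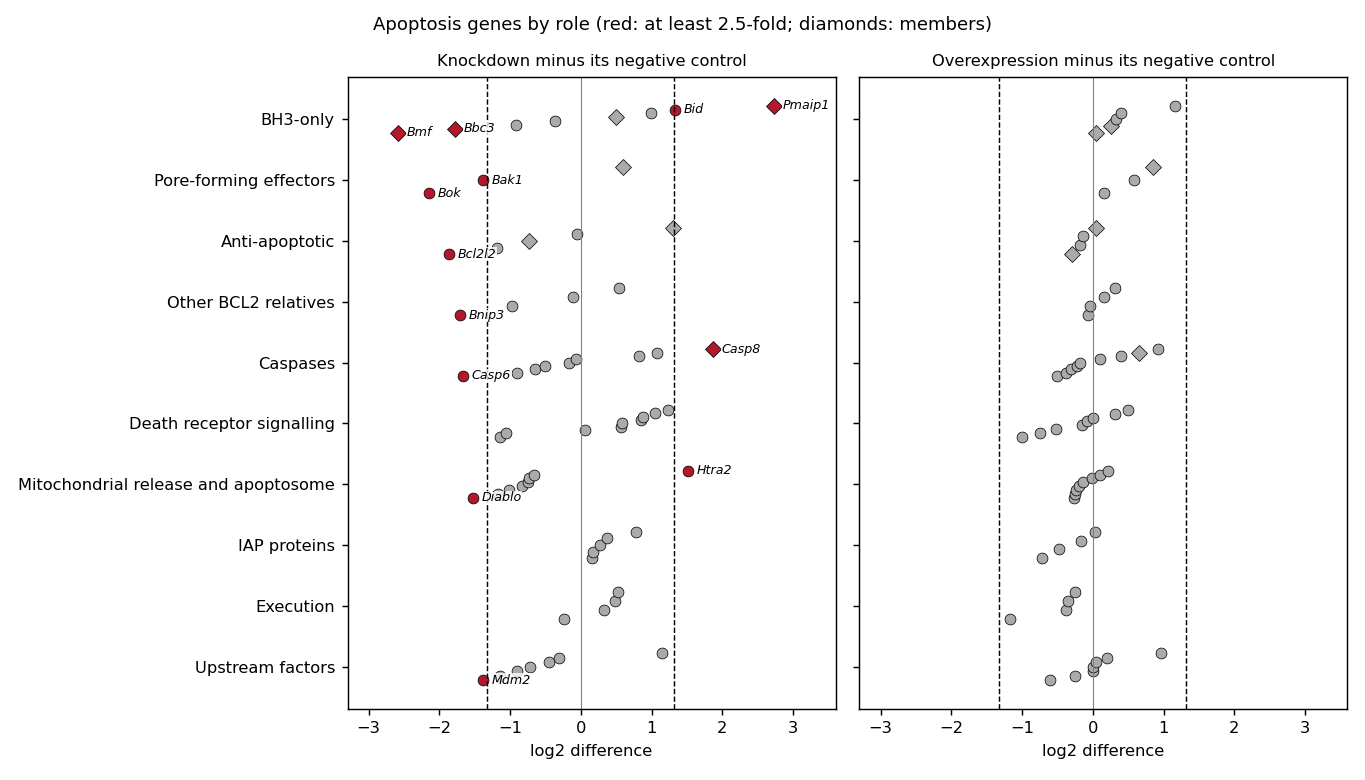
Log2 differences of the listed apoptosis genes that could be called, in rows by role, for the knockdown virus minus its negative control (left) and the overexpression virus minus its negative control (right), with members as diamonds and dashed lines at 2.5-fold. On the left 4 genes lie beyond the upper line and 9 beyond the lower, and on the right none lies beyond either; the split on the left becomes 9 and 6 with the percentile over probes above background on all arrays.

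Genes were ranked by how like their profile over the 5 arrays was to that of a called member. The measure was the root mean square difference of centred log2 levels, among 10684 genes well above background on all arrays. Placeholder symbols, such as those starting with LOC or RGD, count among the 10684 but were skipped in naming the nearest. For Bmf these were Arhgef19 (0.161), Snrnp48 (0.207) and Epor (0.207). Bbc3 was nearest to Stk19 (0.0683), Pou2f1 (0.0720) and B4galt3 (0.0733), and Casp8 to Nmnat1 (0.0818), Mapkap1 (0.0950) and Wdr47 (0.113). Pmaip1 had no such close neighbour among the genes not skipped: the nearest were Canx (0.452), Sesn2 (0.576) and Arf6 (0.602). Of its own 5 readings, 2 were not well above background. These are likenesses over 5 arrays that all genes share, given as a description.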

How the data were processed

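Total RNA of 5 groups of BRL-3A cells, 1 sample each, was labelled with Cy3 and read on one-colour arrays. The deposited scanner files hold intensity per spot, corrected per array for background and spatial trend and not scaled to each other, read with Agilent Feature Extraction 11.0.1.1 per the file headers (version 9.1 per the submitters' processing notes); the array design is on rn4. The authors' deposited table holds log2 values with equal medians on all arrays and correlates with log2 scanner signal at 0.990 to 0.999; the sources used here do not name the normalization.

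Control spots and spots flagged as outliers were left out of 42877 non-control spots, spots of a probe were averaged on the log2 scale, and each array's 75th percentile was subtracted (pandas 2.3.3, numpy 2.4.6). Of 30367 probes, 18005 matched exactly 1 gene name, and the 12362 that matched none or several were left unnamed. A gene took its probe with the highest mean. A gene could be called where the brighter array was well above background, and was called at 2.5-fold, the fold in the design text. A dim value not well above background was raised to that array's lowest signal well above background where it lay below it, and otherwise kept. The design text also names a p-value, which 1 array per group cannot give. All members are described; of the wider list, up to 6 called genes per direction with the largest change were named, and 3 nearest profiles per called member. The members and lists were chosen with earlier results of these data known. Alternatives were quantile and normexp normalization (limma 3.58.1, R 4.3.3; normexp used median pixel signals), other percentiles, thresholds, control arrays and the authors' table.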

Additional observations from a re-analysis of the deposited data

How the results depend on the processing

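No paired analysis was possible because each group has 1 sample, and no replicate could be left out. For the knockdown virus against its negative control, 4 members were called, and 2 at a 4-fold threshold (with normexp Mcl1 took the place of Casp8); no other alternative moved that count by over 1.5 times. For the overexpression virus the count was 0, and 1 with the other negative control or with normal cells as control. Between the negative controls the count of 1 (Pmaip1) became 0 with quantile normalization, normexp, the authors' table, 4-fold, probes above background on all arrays and the 2 alternatives added after seeing the data (percentile over probes kept on all arrays, outlier spots kept), and 2 with the percentile over probes above background or at 2-fold. For the knockdown negative control against normal cells the count of 1 (Bbc3) became 0 with that percentile, at 4-fold and with both added alternatives, and 3 at 2-fold; it stayed 1 but was Pmaip1 instead with quantile normalization and in the authors' table, and Bcl2l1 with normexp. For the overexpression negative control against normal cells the count of 1 (Bcl2l1) became 0 with quantile normalization, that percentile, the authors' table, the mean of all probes and 4-fold, 2 at 2-fold and 3 without bounds. The wider list's 13 knockdown calls became 24 at 2-fold, 3 at 4-fold and 21 with the other negative control; its 0 overexpression calls became 3 at 2-fold, 4 with the other negative control and 9 with normal cells. Against its own negative control, the knockdown difference of Pmaip1 lay between 1.35 and 3.04 over the scalings; that of Bmf lay between -3.51 and -1.68 over scalings and controls. Both were called under each scaling, Pmaip1 only just with normexp. No called member reversed.

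Over all genes, 2363 were called for knockdown, but 1425 with normexp, 4028 at 2-fold and 684 at 4-fold; for overexpression 370, but 77 with normexp, 749 without bounds, 782 at 2-fold, 87 at 4-fold and 234 over probes above background on all arrays. The higher share of knockdown calls was 45.7%, and 71.2% with the percentile over probes above background, 34.0% with normexp; for overexpression 64.3%, and 53.9% with quantile normalization, 49.4% with normexp and 51.4% in the authors' table. The median knockdown difference of genes above background on all arrays was -0.26, against 0.05 with that percentile. The causes were not tested. Dim readings allow no fold for Bcl2 in any comparison, or for Bcl2l11 and Pmaip1 within the overexpression pair.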
